A study of Rattus norvegicus with 15 samples.

Results

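The mitochondrial carriers are a family of transporters, named Slc25, whose transcripts were measured here together with those of the uncoupling proteins Ucp2 and Ucp3. Members were the genes whose array probe sets carry a single platform symbol that starts with Slc25a, without Slc25a1 and Slc25a20, plus Ucp2 and Ucp3. There were 40 such genes among 14217 with a single symbol, and the brightest of each gene's probe sets stood for it. Almost all of these proteins sit in the inner mitochondrial membrane and are built from repeats of a short membrane unit. Each lets a small molecule cross: nucleotides and phosphate for ATP synthesis, carboxylates and amino acids for gluconeogenesis and the urea cycle, cofactors, or iron. Uncoupling proteins are named after Ucp1 of brown fat, which lets protons leak back across the membrane, and Ucp2 and Ucp3 are best known as genes that respond to fatty acids.

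The samples were livers of male Sprague Dawley rats from Charles River that were 7 weeks old at the start and ate a high fat diet, with 59% of energy from fat, throughout. Rats were gavaged once a day for 6 weeks with 0.5% methylcellulose as vehicle, with PF-04923503 at 10 mg/kg or with PF-04923503 at 30 mg/kg. The labels call this compound an ACC inhibitor, ACC being acetyl-CoA carboxylase, which makes malonyl-CoA. There were 5 samples in each group and 1 array for each sample. All 3 groups ate the high fat diet, and no group on another diet was analysed here. Nothing in the labels says that the 15 samples are 15 animals, and the tests therefore weigh differences against a sample spread that may be partly technical.

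Values are log2 expression of a probe set, a group of short probes for 1 transcript, as the authors deposited them. Different probe sets bind with different strength, so levels are compared between samples for 1 probe set and not between genes. A probe set was tested when at least 5 of its 15 values exceeded 6.10, which is the median over all probe sets and arrays. Counts below are over the members that passed, not over all of them. Of the 40 members 31 passed. The other 9 were Slc25a18, Slc25a24, Slc25a27, Slc25a31, Slc25a34, Slc25a35, Slc25a41, Slc25a45 and Slc25a53. Of these Slc25a24 exceeded the threshold in 3 samples and Slc25a45 in 4, and the remaining 7 stayed below it in all 15 samples, between 4.30 and 5.71. They include Slc25a31, the ADP/ATP exchanger known from testis, and Slc25a27, an uncoupling protein relative known from brain. Markers bore the liver label out: all 11 hepatocyte markers measured passed the filter, and Alb, which encodes albumin, averaged 15.36 in vehicle. Of 10 skeletal muscle markers 9 stayed below the filter and the probe set annotated to Myh1 averaged 12.43 in vehicle. Of 6 adipose tissue markers 5 stayed below it, among them Adipoq and Ucp1, and Cidec averaged 10.01 in vehicle.

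**Figure D1:**
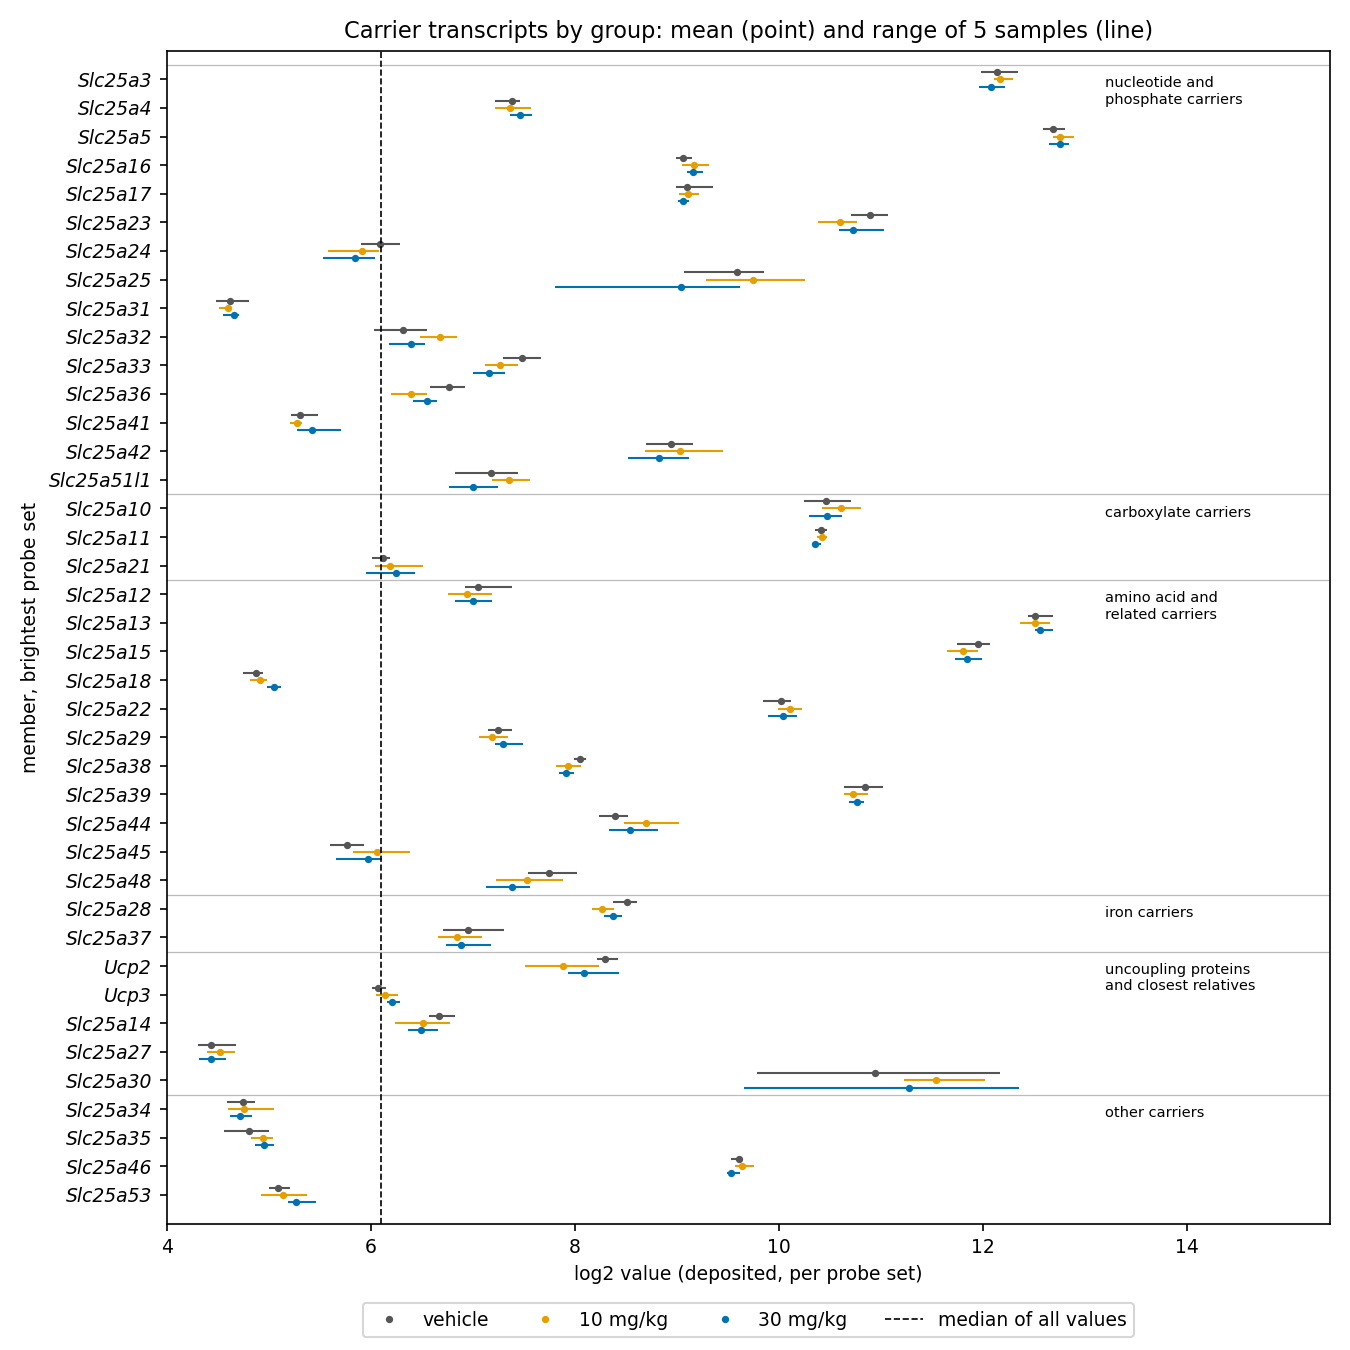
Log2 value (horizontal axis) of the brightest probe set of each of the 40 members, grouped by what the carrier transports. Points are group means, lines run from the lowest to the highest of 5 samples, and the dashed line is the median of all values, 6.10. Slc25a25 and Slc25a30 have the widest lines in each group.

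No carrier or uncoupling protein transcript was called at either dose. The test was limma's moderated test over 9540 genes with Benjamini-Hochberg adjustment, and calls needed an adjusted p under 0.05. At 10 mg/kg 0 of 31 tested members were called against vehicle, beside 0.105% of all genes, and 8 members had an unadjusted p under 0.05, or 25.8%, beside 13.3% of all genes. These were 6 lower members, Slc25a23, Slc25a28, Slc25a33, Slc25a36, Slc25a38 and Ucp2, where 8.79% of all genes were lower, and 2 higher ones, Slc25a32 and Slc25a44, where 4.49% were higher. At 30 mg/kg 0 were called, beside 0% of all genes, and 6 had an unadjusted p under 0.05, or 19.4%, beside 16.1%. Of these Slc25a28, Slc25a33, Slc25a36, Slc25a38 and Slc25a48 were lower, beside 10.8% of all genes, and Ucp3 was higher, beside 5.27%. For the mean of both doses 0 were called, beside 0.147% of all genes, and 10 had an unadjusted p under 0.05, or 32.3%, beside 17.7%. Of these 7 were lower, beside 12.4% of all genes, and 3 were higher, beside 5.30%. Between 30 and 10 mg/kg 0 were called, beside 0%, and 4 had an unadjusted p under 0.05, or 12.9%, beside 5.82%. All 4, Slc25a25, Slc25a32, Slc25a46 and Slc25a51l1, were lower at 30 mg/kg, beside 3.25% of all genes, and 0 were higher, beside 2.57%. Groups at the 2 doses overlapped in every tested member, beside 0.943% of all genes without overlap. Over the tested members the log2 difference had a median of 0.01 for 10 mg/kg and -0.06 for 30 mg/kg, beside -0.02 and -0.03 over all genes. Differences ran from -0.41 for Ucp2 to 0.60 for Slc25a30 at 10 mg/kg, and from -0.56 for Slc25a25 to 0.34 for Slc25a30 at 30 mg/kg. Without sample 4 at 30 mg/kg the Slc25a25 difference at that dose was -0.25. Both doses are compared with the same 5 vehicle samples, so their differences are not independent. The smallest adjusted p of any member was 0.0913, for Slc25a36 in the mean of both doses.

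**Figure D2:**
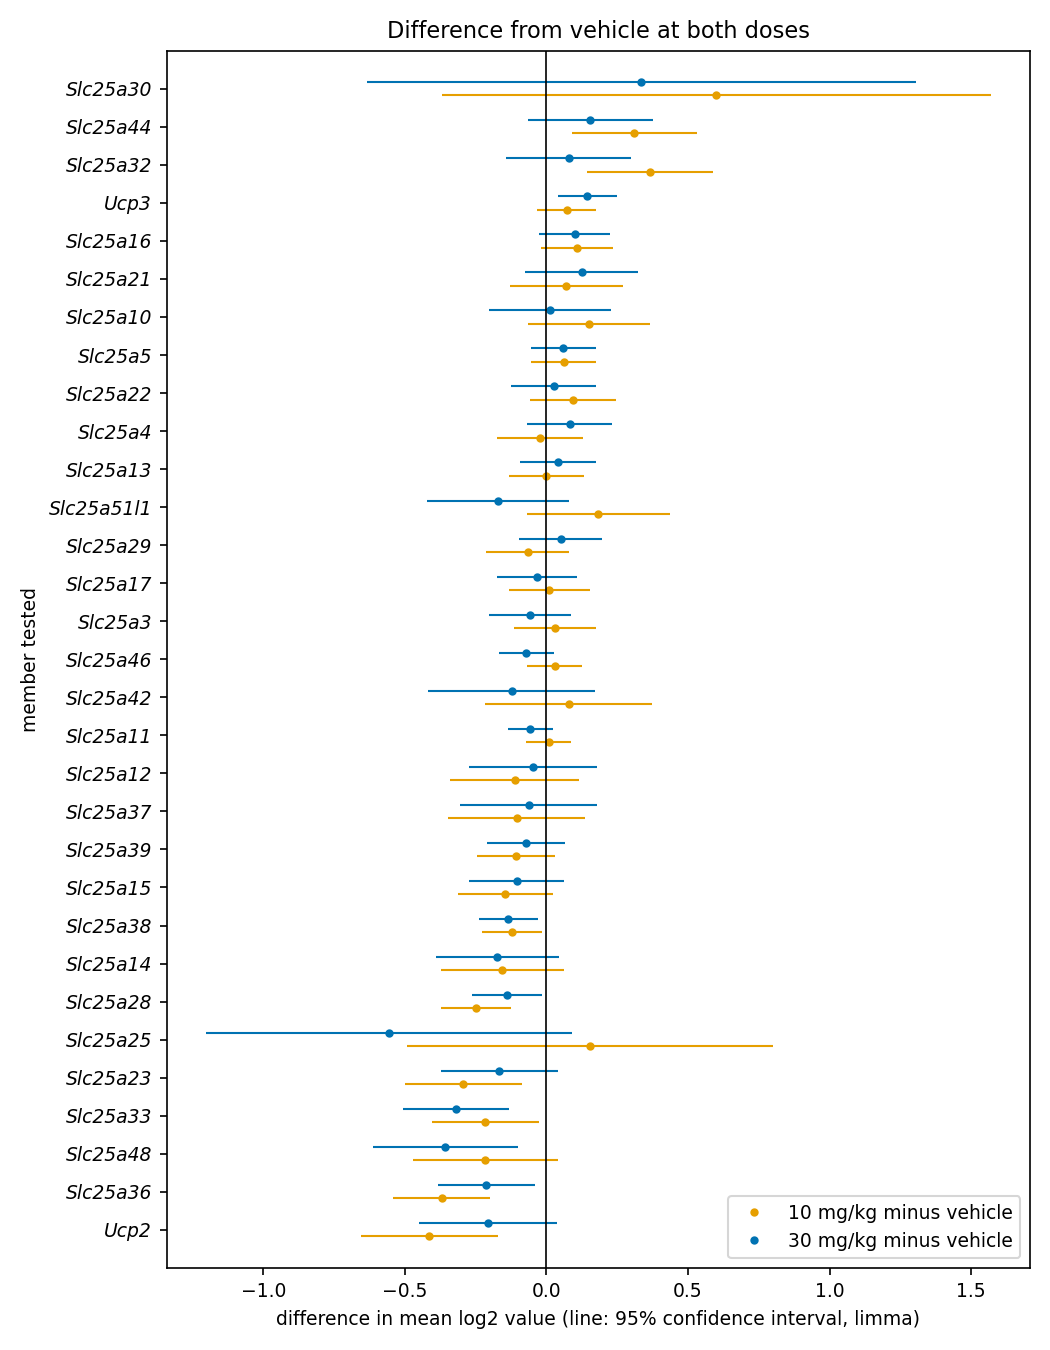
Difference in mean log2 value from vehicle (horizontal axis) for the 31 tested members at 10 mg/kg and 30 mg/kg, with 95% confidence intervals from limma. Beyond 0.4 from 0 lie Slc25a30 and Ucp2 at 10 mg/kg and Slc25a25 at 30 mg/kg, and the intervals of Slc25a30 and Slc25a25 are the widest of the 31. Without sample 4 at 30 mg/kg the Slc25a25 difference at that dose is -0.25.

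Among carriers of nucleotides and phosphate, the probe sets of both pyrimidine nucleotide carriers were lower in treated samples, without being called. Slc25a36, which carries pyrimidine nucleotides for mitochondrial DNA and RNA, had values of 6.74, 6.87, 6.69, 6.58 and 6.93 in vehicle samples 1 to 5, 6.55, 6.52, 6.44, 6.20 and 6.25 at 10 mg/kg and 6.65, 6.42, 6.54, 6.58 and 6.56 at 30 mg/kg. All 5 samples at 10 mg/kg lay below all 5 vehicle samples, the only tested member without overlap at that dose, where 2.44% of all genes showed none. At 30 mg/kg the samples overlapped those of vehicle. Its vehicle level was 1.29-fold that at 10 mg/kg (limma adjusted p = 0.0983) and 1.16-fold that at 30 mg/kg (limma adjusted p = 0.229). The unadjusted p at 30 mg/kg stayed under 0.05 in 12 of 15 limma fits without 1 sample. A second probe set of the gene, under the filter, had differences of -0.18 and -0.15 on the log2 scale. Slc25a33, the other pyrimidine nucleotide carrier, had values of 7.64, 7.30, 7.30, 7.66 and 7.50 in vehicle samples 1 to 5, 7.44, 7.22, 7.12, 7.24 and 7.29 at 10 mg/kg and 7.12, 7.00, 7.07, 7.28 and 7.32 at 30 mg/kg. Vehicle samples 2 and 3 lay among the treated ones, and the other vehicle samples lay above all 10 treated samples. Treated over vehicle was 0.861 (95% confidence interval 0.756 to 0.981, limma adjusted p = 0.318) at 10 mg/kg and 0.801 (0.704 to 0.913, limma adjusted p = 0.156) at 30 mg/kg. The unadjusted p of Slc25a33 at 10 mg/kg stayed under 0.05 in 11 of 15 limma fits without 1 sample.

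Slc25a32, the mitochondrial carrier of folate and FAD, had a higher mean at 10 mg/kg than in both other groups. Its values were 6.55, 6.21, 6.03, 6.36 and 6.44 in vehicle samples 1 to 5, 6.76, 6.79, 6.48, 6.55 and 6.84 at 10 mg/kg and 6.28, 6.18, 6.53, 6.53 and 6.47 at 30 mg/kg. Samples 1, 2 and 5 at 10 mg/kg lay above all other samples, and samples 3 and 4 lay among them. Vehicle sample 3 lay below the filter threshold of 6.10, and the other samples lay above it. A second probe set, under the filter with a mean of 3.80, had log2 differences from vehicle of 0.04 at 10 mg/kg and -0.05 at 30 mg/kg. Its difference of 30 from 10 mg/kg was -0.09. On the brightest probe set the fold over vehicle was 1.29 (interval 1.10 to 1.50, limma adjusted p = 0.172) at 10 mg/kg and 1.06 (0.906 to 1.23) at 30 mg/kg. Between the doses, 10 mg/kg was at 1.22-fold the 30 mg/kg level (limma adjusted p = 0.851). The probe set annotated to Slc25a51l1 ran the same way between doses, with values of 6.83, 7.44, 7.09, 7.14 and 7.38 in vehicle samples 1 to 5, 7.42, 7.28, 7.18, 7.57 and 7.35 at 10 mg/kg and 7.00, 6.76, 7.15, 7.25 and 6.87 at 30 mg/kg. At 10 mg/kg it stood at 1.28-fold the 30 mg/kg level (limma adjusted p = 0.851), with the lowest sample at 10 mg/kg below the highest at 30 mg/kg.

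Slc25a23 and Slc25a25 carry ATP-Mg against phosphate, which sets the adenine nucleotide content of the matrix, and neither was called. Slc25a23 read 11.07, 11.00, 10.71, 10.89 and 10.81 in vehicle samples 1 to 5, 10.77, 10.48, 10.70, 10.67 and 10.39 at 10 mg/kg and 10.73, 11.03, 10.61, 10.68 and 10.59 at 30 mg/kg. Vehicle samples 1, 2, 4 and 5 lay above all samples at 10 mg/kg, while samples 1 and 2 at 30 mg/kg lay within the vehicle range. Its vehicle level was 1.23-fold that at 10 mg/kg (limma adjusted p = 0.235), and its other 2 probe sets gave log2 differences of -0.05 and -0.15 against -0.29. Slc25a25 read 9.67, 9.60, 9.85, 9.07 and 9.79 in vehicle samples 1 to 5, 10.24, 10.26, 9.29, 9.43 and 9.53 at 10 mg/kg and 9.05, 9.62, 9.18, 7.80 and 9.53 at 30 mg/kg. Samples 1 and 2 at 10 mg/kg were the highest of the 15, and sample 4 at 30 mg/kg, at 7.80, was the lowest by more than a log2 unit. The 10 mg/kg mean was 1.64-fold that at 30 mg/kg (interval of 30 over 10 mg/kg 0.391 to 0.957, limma adjusted p = 0.851). Without sample 4 at 30 mg/kg the log2 difference between doses was -0.40 in place of -0.71, with an unadjusted p above 0.05 in limma. The unadjusted p between doses stayed under 0.05 in 11 of 15 limma fits without 1 sample.

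None of the core carriers of oxidative phosphorylation was called. Slc25a5, an ADP/ATP exchanger of most tissues, read 12.70, 12.59, 12.67, 12.81 and 12.70 in vehicle samples 1 to 5, 12.70, 12.75, 12.73, 12.69 and 12.89 at 10 mg/kg and 12.75, 12.72, 12.84, 12.80 and 12.65 at 30 mg/kg. Slc25a4, the ADP/ATP exchanger of heart and muscle, read 7.46, 7.47, 7.22, 7.39 and 7.39 in vehicle samples 1 to 5, 7.36, 7.57, 7.38, 7.28 and 7.22 at 10 mg/kg and 7.58, 7.36, 7.38, 7.46 and 7.56 at 30 mg/kg. Slc25a3, which brings in the phosphate for ATP synthesis, read 11.98, 12.06, 12.17, 12.35 and 12.14 in vehicle samples 1 to 5, 12.15, 12.11, 12.13, 12.18 and 12.30 at 10 mg/kg and 12.13, 12.06, 12.22, 12.04 and 11.96 at 30 mg/kg. The 3 groups overlapped in each of these genes. The 95% intervals of treated over vehicle were 0.963 to 1.13 and 0.962 to 1.13 for Slc25a5, 0.887 to 1.09 and 0.954 to 1.18 for Slc25a4, and 0.925 to 1.13 and 0.869 to 1.06 for Slc25a3 at 10 and 30 mg/kg. Slc25a42, which imports coenzyme A, read 9.13, 8.79, 9.15, 8.69 and 8.97 in vehicle samples 1 to 5, 9.07, 9.45, 8.86, 8.69 and 9.06 at 10 mg/kg and 8.84, 8.88, 9.12, 8.52 and 8.77 at 30 mg/kg, with sample 2 at 10 mg/kg highest and sample 4 at 30 mg/kg lowest. Slc25a17, the carrier of cofactors into peroxisomes, lay between 8.99 and 9.36 over all samples, and Slc25a16, related to coenzyme A carriers, between 8.99 and 9.32.

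The carboxylate carriers, which move malate, oxoglutarate and related acids, showed no difference past the test. Slc25a10, the dicarboxylate carrier that exports malate, read 10.48, 10.30, 10.57, 10.25 and 10.70 in vehicle samples 1 to 5, 10.63, 10.75, 10.44, 10.80 and 10.42 at 10 mg/kg and 10.36, 10.62, 10.54, 10.29 and 10.56 at 30 mg/kg. Its second probe set had log2 differences of -0.12 and -0.36 where the brightest one had 0.15 and 0.01, so the probe sets of this gene do not give 1 direction. Slc25a11, the oxoglutarate/malate carrier of the malate-aspartate shuttle, read 10.35, 10.40, 10.47, 10.44 and 10.41 in vehicle samples 1 to 5, 10.47, 10.37, 10.41, 10.41 and 10.44 at 10 mg/kg and 10.32, 10.34, 10.36, 10.41 and 10.35 at 30 mg/kg. Its spread within groups was 0.0385, the smallest of the tested members, whose median was 0.132 beside 0.119 over all genes. The interval of treated over vehicle for Slc25a11 was 0.952 to 1.06 at 10 mg/kg and 0.909 to 1.02 at 30 mg/kg. Slc25a21, a carrier of oxoadipate, lay close to the filter threshold, at 5.95 to 6.51.

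No amino acid carrier was called in any comparison. Slc25a13, the aspartate/glutamate carrier of liver, read 12.47, 12.45, 12.44, 12.69 and 12.52 in vehicle samples 1 to 5, 12.37, 12.45, 12.66, 12.53 and 12.57 at 10 mg/kg and 12.55, 12.52, 12.51, 12.52 and 12.68 at 30 mg/kg. Its interval of treated over vehicle was 0.912 to 1.10 at 10 mg/kg and 0.938 to 1.13 at 30 mg/kg, and a second probe set gave log2 differences of 0.01 and 0.04. Slc25a12, its counterpart in heart and brain, read 7.38, 7.00, 6.92, 7.00 and 6.96 in vehicle samples 1 to 5, 7.19, 6.76, 6.88, 6.76 and 7.11 at 10 mg/kg and 6.96, 6.93, 7.12, 7.19 and 6.83 at 30 mg/kg. Slc25a15, the ornithine/citrulline exchanger of the urea cycle, read 11.89, 12.07, 12.03, 12.03 and 11.75 in vehicle samples 1 to 5, 11.76, 11.65, 11.80, 11.89 and 11.95 at 10 mg/kg and 11.76, 12.00, 11.73, 11.99 and 11.76 at 30 mg/kg. Its brightest probe set had log2 differences of -0.15 and -0.11, and its other 4 filtered probe sets ran from -0.10 to 0.01 at 10 mg/kg and from -0.12 to 0.22 at 30 mg/kg, so no direction is given. Slc25a22, a glutamate carrier, read 10.03, 10.02, 10.12, 9.85 and 10.07 in vehicle samples 1 to 5, 10.05, 10.23, 9.99, 10.18 and 10.11 at 10 mg/kg and 10.18, 10.08, 10.15, 9.91 and 9.89 at 30 mg/kg. In these 4 genes the groups overlapped. The 95% intervals of treated over vehicle at 10 and 30 mg/kg were 0.791 to 1.08 and 0.827 to 1.13 for Slc25a12, and 0.961 to 1.19 and 0.917 to 1.13 for Slc25a22.

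Slc25a44, a carrier of branched-chain amino acids described in mouse brown fat, had a higher mean in treated samples. It read 8.37, 8.34, 8.48, 8.23 and 8.52 in vehicle samples 1 to 5, 8.49, 8.68, 8.61, 9.02 and 8.71 at 10 mg/kg and 8.51, 8.82, 8.67, 8.33 and 8.40 at 30 mg/kg. Samples 2 to 5 at 10 mg/kg lay above all vehicle samples, and samples 1, 4 and 5 at 30 mg/kg lay within the vehicle range. The fold over vehicle was 1.24 (interval 1.06 to 1.45, limma adjusted p = 0.242) at 10 mg/kg and 1.11 (0.956 to 1.30, limma adjusted p = 0.479) at 30 mg/kg, and a second probe set had log2 differences of 0.21 and 0.10. Slc25a48, linked to choline import in mouse and human cells, read 7.73, 7.86, 7.57, 7.54 and 8.02 in vehicle samples 1 to 5, 7.89, 7.23, 7.44, 7.52 and 7.56 at 10 mg/kg and 7.40, 7.31, 7.13, 7.53 and 7.56 at 30 mg/kg. Vehicle samples 1, 2, 3 and 5 lay above all samples at 30 mg/kg, sample 3 narrowly, and sample 4 lay among them. Vehicle was 1.28-fold the 30 mg/kg level (limma adjusted p = 0.202) on the brightest probe set, while the second had log2 differences of -0.20 at 10 mg/kg and -0.04 at 30 mg/kg. Slc25a38, which imports glycine for heme synthesis, read 7.996, 7.998, 8.06, 8.11 and 8.09 in vehicle samples 1 to 5, 8.06, 7.89, 7.82, 7.94 and 7.94 at 10 mg/kg and 7.93, 7.85, 7.95, 7.996 and 7.87 at 30 mg/kg. Sample 1 at 10 mg/kg lay within the vehicle range, sample 4 at 30 mg/kg was level with the lowest vehicle sample, and all other treated samples lay below vehicle. Vehicle was 1.09-fold the 10 mg/kg level and 1.10-fold the 30 mg/kg level (limma adjusted p = 0.318 and 0.219). Under quantile normalisation its unadjusted p in limma was above 0.05 at both doses, and its log2 difference at 30 mg/kg was -0.08 in place of -0.13. With the deposited values, its unadjusted p at 10 mg/kg stayed under 0.05 in 11 of 15 limma fits without 1 sample. Slc25a39, the glutathione carrier, and Slc25a29, a carrier of basic amino acids, lay between 10.63 and 11.02 and between 7.06 and 7.49 over all samples.

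**Figure D3:**
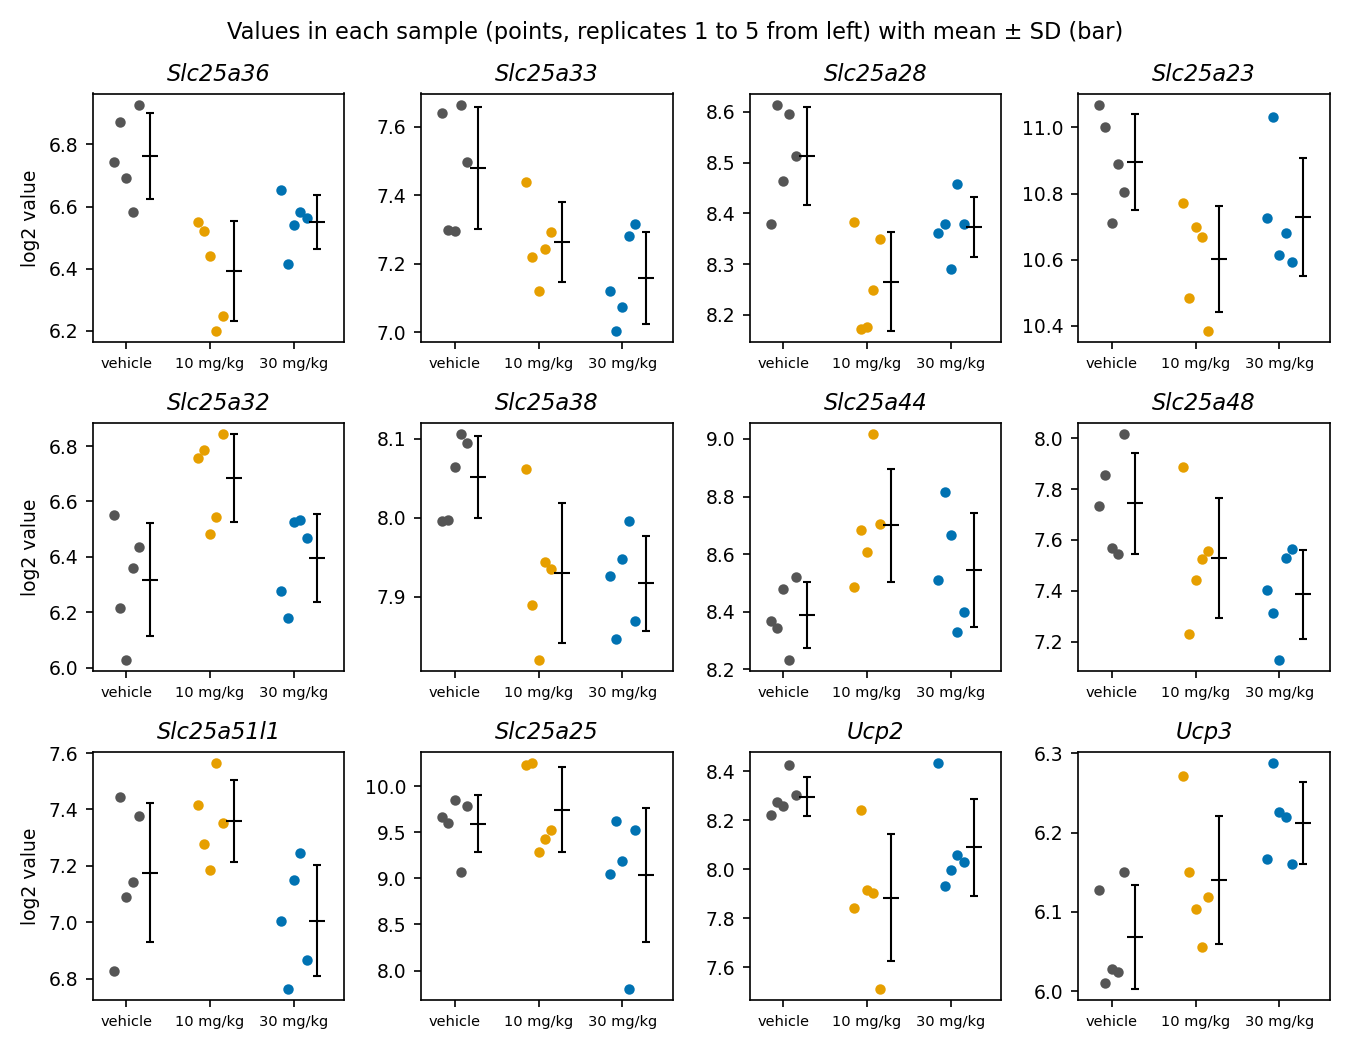
Log2 values (vertical axes, each on its own scale) of 12 members in each of the 15 samples, with mean and SD (n = 5) beside the points. In Slc25a36 all points at 10 mg/kg lie below those of vehicle, in Ucp3 all points at 30 mg/kg lie above those of vehicle, and the other panels overlap.

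Mitoferrins bring iron into mitochondria for heme and iron-sulfur clusters, Slc25a37 in red cell precursors and Slc25a28 in other tissues. Slc25a28 read 8.38, 8.61, 8.46, 8.60 and 8.51 in vehicle samples 1 to 5, 8.38, 8.17, 8.18, 8.25 and 8.35 at 10 mg/kg and 8.36, 8.38, 8.29, 8.46 and 8.38 at 30 mg/kg. Vehicle samples 2 to 5 lay above all 5 values at 10 mg/kg, and vehicle sample 1, at 8.38, lay among the treated ones. Vehicle was 1.19-fold the 10 mg/kg level (treated over vehicle, 95% interval 0.773 to 0.917; limma adjusted p = 0.119) and 1.10-fold the 30 mg/kg level (0.833 to 0.989, limma adjusted p = 0.257). The log2 difference at 30 mg/kg, -0.14, was -0.09 under quantile normalisation, with an unadjusted p above 0.05 in limma. That p was also above 0.05 without vehicle sample 2, vehicle sample 4 or sample 3 at 30 mg/kg. Slc25a37 read 7.31, 6.88, 6.71, 7.05 and 6.81 in vehicle samples 1 to 5, 7.09, 6.78, 6.85, 6.66 and 6.85 at 10 mg/kg and 6.90, 6.80, 6.74, 7.18 and 6.82 at 30 mg/kg, with vehicle sample 1 highest and the groups overlapping. Of 7 erythroid markers on the array 4 passed the filter, with 0 called at either dose, and their median log2 differences at the lower and the higher dose were -0.40 and -0.29. The summed level of the 4 ranged from 11335 to 20860 in vehicle, from 8487 to 17945 at 10 mg/kg and from 9001 to 17790 at 30 mg/kg on the linear scale. Across the 15 samples no relation of Slc25a37 to the mean of these markers was detected (Pearson r = 0.179, permutation p = 0.527, adjusted over 3 relations 0.674; Spearman rho = 0.00179, permutation p = 0.997, adjusted 0.997; r = 0.144 without the 2 samples farthest from the median).

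Promoter sequence is shown for Slc25a28, whose adjusted p at 10 mg/kg came next to that of Slc25a36, and for Ucp2 and Ucp3, which are neighbours on rat chromosome 1. Of the 40 members 34 had an entry in the RefSeq table (build GRCr8). The 250 bases before the annotated start are printed 5′ to 3′ on the gene's own strand, at chr1:252491343-252491592 (minus strand), chr1:164251123-164251372 (plus strand) and chr1:164227660-164227909 (plus strand). Capitals mark every match, on both strands, to the 5 motifs searched: CACGTG (the E-box), AGGTCA (a nuclear receptor repeat unit), GGGCGG (the GC box), CCAAT (the CCAAT box) and TATAAA (the TATA box).
Slc25a28: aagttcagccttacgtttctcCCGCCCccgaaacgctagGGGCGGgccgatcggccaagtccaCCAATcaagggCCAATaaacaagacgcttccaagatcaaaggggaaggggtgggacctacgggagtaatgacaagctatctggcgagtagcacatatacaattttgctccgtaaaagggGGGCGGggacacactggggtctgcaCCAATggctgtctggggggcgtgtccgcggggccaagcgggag
Ucp2: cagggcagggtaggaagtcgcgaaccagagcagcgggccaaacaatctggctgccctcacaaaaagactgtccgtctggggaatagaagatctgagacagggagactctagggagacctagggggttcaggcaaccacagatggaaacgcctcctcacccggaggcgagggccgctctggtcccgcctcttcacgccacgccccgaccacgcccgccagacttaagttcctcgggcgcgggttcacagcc
Ucp3: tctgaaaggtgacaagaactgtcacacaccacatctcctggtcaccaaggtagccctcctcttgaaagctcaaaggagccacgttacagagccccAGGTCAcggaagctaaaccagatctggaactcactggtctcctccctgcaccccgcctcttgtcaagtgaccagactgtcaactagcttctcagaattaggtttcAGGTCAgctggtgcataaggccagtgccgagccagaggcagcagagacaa

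The Slc25a28 window holds 3 GC boxes and 3 CCAAT matches, the Ucp3 window 2 matches to the nuclear receptor unit, and the Ucp2 window 0 matches to these letters. Among 33469 rat promoters of the same length, 14.1% hold the nuclear receptor unit, 30.5% the GC box, 34.0% CCAAT, 12.9% TATAAA and 5.59% the E-box. Among the 34 members the counts were 6, 19, 18, 2 and 3. A member counted when any of its promoter entries matched, while the percentages are over single entries, so the 2 are not on the same basis. A match is a description of the letters and not a binding site.

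Ucp2 was lower in treated samples and Ucp3 higher, neither past the test over all genes. Ucp2 read 8.22, 8.27, 8.26, 8.43 and 8.30 in vehicle samples 1 to 5, 7.84, 8.24, 7.92, 7.90 and 7.51 at 10 mg/kg and 8.43, 7.93, 7.997, 8.06 and 8.03 at 30 mg/kg. Vehicle samples lay close together, samples 1, 3, 4 and 5 at 10 mg/kg lay below all of them and sample 2 lay within their range. At 30 mg/kg 4 samples lay below all vehicle samples, while sample 1, at 8.43, lay level with or just above the highest vehicle sample. Vehicle was 1.33-fold the 10 mg/kg level (treated over vehicle, 95% interval 0.635 to 0.889; limma adjusted p = 0.164) and 1.15-fold the 30 mg/kg level (0.733 to 1.03, limma adjusted p = 0.387). Ucp3, which is best known from muscle, read 6.13, 6.01, 6.03, 6.02 and 6.15 in vehicle samples 1 to 5, 6.27, 6.15, 6.10, 6.06 and 6.12 at 10 mg/kg and 6.17, 6.29, 6.23, 6.22 and 6.16 at 30 mg/kg. All 5 samples at 30 mg/kg lay above all 5 vehicle samples, the only tested member without overlap at that dose, where 3.21% of all genes showed none. The fold over vehicle was 1.10 (interval 1.03 to 1.19, limma adjusted p = 0.204) at 30 mg/kg and 1.05 (0.978 to 1.13) at 10 mg/kg. Its vehicle mean of 6.07 lay below the filter threshold, 11 of its 15 values exceeded the threshold, and a second probe set under the filter had log2 differences of 0.05 and 0.04, so this gene was measured near the lower limit of the range kept.

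The level of Ucp2, which in liver is known from Kupffer cells as well as from fatty hepatocytes, moved with markers of macrophages. No other list of cell type markers was set against it. Of 11 tested macrophage markers, among them Cd68, Cd163, Clec4f and Lyz2, 0 were called at either dose. At an unadjusted p under 0.05 in limma 6 were lower at 10 mg/kg and 2 at 30 mg/kg, beside 8.79% and 10.8% of all genes. At that p 0 were higher, beside 4.49% and 5.27%. By mean, 10 of the 11 were lower at each dose. Lyz2 was higher, at 10.27 in vehicle, 10.47 at 10 mg/kg and 10.45 at 30 mg/kg. The median log2 difference of the 11 markers was -0.39 and -0.34, beside -0.02 and -0.03 over all genes. Their summed level ranged from 7857 to 11663 in vehicle, from 6303 to 9228 at 10 mg/kg and from 6279 to 11011 at 30 mg/kg on the linear scale. Itgam, also on this list, stayed below the filter. In bulk tissue fewer cells of a type and less RNA per cell cannot be told apart. Across the 15 samples Ucp2 followed the mean of these 11 markers with Pearson r = 0.694 (permutation p = 0.00408, adjusted over 3 relations 0.0122) and Spearman rho = 0.739 (permutation p = 0.00263, adjusted 0.00789), and with r = 0.619 without the 2 samples farthest from the median. As deviations from group means, r was 0.608 (permutation p = 0.0154, adjusted 0.0461) and rho 0.604 (permutation p = 0.0187, adjusted 0.0560), with r = 0.445 without 2 samples. The permutations of deviations ran over all 15 samples without allowing for the fitted group means, so their p-values tend to be too small. Sample 1 at 30 mg/kg, which stood above the rest of its group in Ucp2, also had the highest macrophage mean of its group, 9.51, where the others ran from 8.58 to 9.03. Vehicle sample 4 went the other way, being the highest of its group in Ucp2 at 8.43. Its macrophage mean, 8.92, was the lowest of its group, where the others ran from 9.12 to 9.59. Endothelial markers and stellate cell and matrix markers were also lower by median. The median log2 difference of 8 endothelial markers was -0.22 and -0.15, and all 8 were lower by mean at each dose. For 10 stellate cell and matrix markers the median was -0.24 and -0.12, with 10 lower at 10 mg/kg and 7 at 30 mg/kg. At an unadjusted p under 0.05 in limma 2 endothelial markers were lower at each dose. Of the stellate cell and matrix markers 5 were lower at 10 mg/kg and 1 at 30 mg/kg at that p. The shares of all genes were 8.79% and 10.8%, and 0 of either list were higher at that p. In both lists 0 were called. Medians were -0.33 and -0.03 for 3 lymphocyte and neutrophil markers and 0.015 and 0.0006 for 11 hepatocyte markers. The 1 tested cholangiocyte marker, Epcam, had differences of 0.04 and 0.07. The mean of the endothelial markers ran from 8.56 to 8.73 in vehicle, from 8.25 to 8.58 at 10 mg/kg and from 8.34 to 8.63 at 30 mg/kg. Whether the relation of Ucp2 is particular to macrophage markers was not tested. The part of macrophage content in the Ucp2 difference was not tested either. For Ucp3 no relation to the mean of 18 targets of PPAR-alpha, the fatty acid receptor of hepatocytes, was detected (Pearson r = 0.118, permutation p = 0.674, adjusted 0.674; Spearman rho = 0.138, permutation p = 0.620, adjusted 0.930; r = 0.337 without 2 samples).

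When every tested member was set against both list means, a comparison added after the data were seen and adjusted over 62 relations, 0 of 31 members passed for macrophage markers. There 3 had an unadjusted permutation p for Pearson r under 0.05: Ucp2, Slc25a36 and Slc25a5, the last with r = -0.6. Of the 31, 13 had a positive r with macrophage markers, and the median r was -0.053. The adjusted p of Ucp2 for Pearson r was 0.0596 over this larger family, and Slc25a36 came next to Ucp2, with Pearson r = 0.681 (permutation p = 0.00481, adjusted 0.0596) and Spearman rho = 0.677 (permutation p = 0.00705, adjusted 0.0980). For Slc25a36 r was 0.581 on deviations from group means (permutation p = 0.0240, adjusted 0.186) and 0.610 without the 2 samples farthest from the median. Endothelial and stellate cell lists were not set against the members. For PPAR-alpha targets 9 of 31 members had an unadjusted permutation p for Pearson r under 0.05, and 2 passed, Slc25a30 and Slc25a42. Among the 9, r was negative for Slc25a23 (-0.532), Slc25a28 (-0.578) and Slc25a37 (-0.552). Of the 31, 16 had a positive r with PPAR-alpha targets, and the median r was 0.021.

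Slc25a30, a relative of the uncoupling proteins first described in kidney and described here after its values were seen, was the most variable tested member within groups. It read 10.97, 11.10, 12.17, 10.66 and 9.79 in vehicle samples 1 to 5, 11.69, 12.02, 11.22, 11.29 and 11.45 at 10 mg/kg and 11.64, 11.77, 12.36, 9.65 and 10.95 at 30 mg/kg. Vehicle sample 5 and sample 4 at 30 mg/kg were the lowest of the 15, while vehicle sample 3 and sample 3 at 30 mg/kg were the highest. The within-group SD was 0.799, larger than in 99.3% of all tested genes, and that of Slc25a25 was 0.531, larger than in 98.0%. The fold of Slc25a30 over vehicle was 1.51 at 10 mg/kg with an interval of 0.774 to 2.97, and 1.26 at 30 mg/kg with an interval of 0.644 to 2.47, so that differences of this size could not be told from the spread. Both of its probe sets varied together over the samples (Pearson r = 0.985 between them). Slc25a14, another relative of the uncoupling proteins, lay between 6.24 and 6.82 over all samples.

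Slc25a30 followed the mean of the 18 PPAR-alpha targets across the samples with Pearson r = 0.780 (permutation p = 0.00059, adjusted over 62 relations 0.0288) and Spearman rho = 0.850 (permutation p = 7e-05, adjusted 0.00434), and with r = 0.705 without the 2 samples farthest from the median. On deviations from group means r was 0.788 (permutation p = 0.00058, adjusted 0.0180) and rho 0.711 (permutation p = 0.00409, adjusted 0.127). Its second probe set gave r = 0.791. Slc25a42, the coenzyme A carrier, had r = 0.766 (permutation p = 0.00093, adjusted 0.0288) and rho = 0.579 (permutation p = 0.0262, adjusted 0.203), and r = 0.461 without the 2 samples farthest from the median, so its relation rested in part on those samples. On deviations r was 0.812 (permutation p = 0.00023, adjusted 0.0143) and rho 0.750 (permutation p = 0.00208, adjusted 0.127). As for Ucp2, the p-values on deviations tend to be too small. For Slc25a25 r was 0.606 (permutation p = 0.0192, adjusted 0.149) and rho 0.334 (permutation p = 0.225, adjusted 0.477), and r was 0.0994 without the 2 farthest samples. The lowest PPAR-alpha mean was 11.45, in sample 4 at 30 mg/kg, which was also lowest in Slc25a25, Slc25a30 and Slc25a42, and the highest was 12.20, in sample 2 at 10 mg/kg, which was highest in Slc25a25 and Slc25a42. The list had 0 genes called at either dose, and Cyp4a1, Pdk4, Fabp1 and Cyp4a3 had its smallest p for the mean of both doses. At an unadjusted p under 0.05 in limma, 5 of the 18 were higher at 10 mg/kg and 0 lower, beside 4.49% and 8.79% of all genes. At 30 mg/kg 3 were higher and 1 lower, beside 5.27% and 10.8%. The list's median log2 differences at the lower and the higher dose were 0.12 and -0.03.

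**Figure D4:**
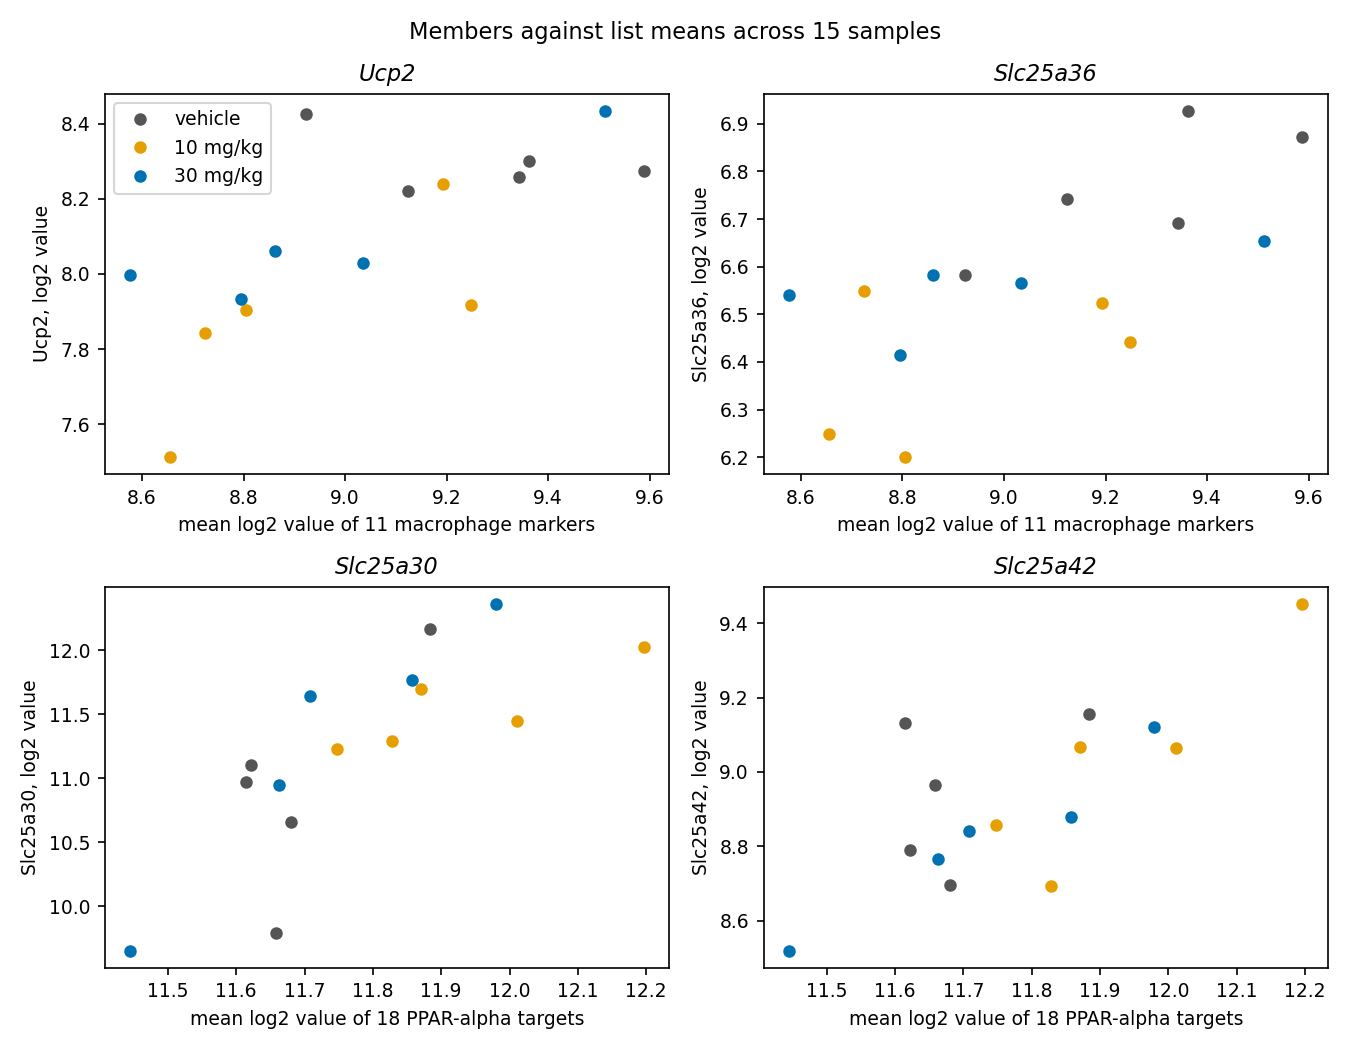
Log2 values of 4 members (vertical axes) against the mean log2 value of 11 macrophage markers (upper panels) or 18 PPAR-alpha targets (lower panels), 1 point for each of the 15 samples, coloured by group. Pearson r is 0.694 for Ucp2, 0.681 for Slc25a36, 0.780 for Slc25a30 and 0.766 for Slc25a42.

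Slc25a46, a carrier-like protein of the outer membrane that takes part in fission, lay between 9.49 and 9.76 over all samples. Its values were 9.63, 9.53, 9.59, 9.64 and 9.65 in vehicle samples 1 to 5, 9.60, 9.57, 9.58, 9.67 and 9.76 at 10 mg/kg and 9.51, 9.62, 9.52, 9.49 and 9.54 at 30 mg/kg. The 10 mg/kg level was 1.07-fold the 30 mg/kg level (limma adjusted p = 0.851), with overlapping groups. The unadjusted p in limma stayed under 0.05 in 5 of 15 fits without 1 sample and under 4 of 10 other settings, and a second probe set had a log2 difference between doses of -0.05 in place of -0.10. Of the carrier family outside the rule, Mtch2, an outer membrane relative, averaged 12.09 in vehicle, 12.24 at 10 mg/kg and 12.20 at 30 mg/kg (limma adjusted p = 0.0886 for the mean of both doses).

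Genes that work with the carriers were likewise not called. The TOM, small TIM and TIM22 proteins, which bring carriers into the inner membrane, had 16 tested genes with 0 called, and for the mean of both doses 3 had an unadjusted p under 0.05 in limma, all lower: Timm9, Tomm7 and Timm8a1. Their median log2 difference from vehicle was -0.05 at both doses. Other transporters of mitochondrial membranes had 16 tested genes with 0 called, 2 higher and 1 lower at an unadjusted p under 0.05 for the mean of both doses. These were Sfxn1, the serine transporter, and Nnt, the NADPH-forming transhydrogenase, both higher, and Abcb6, lower, with limma adjusted p = 0.0964, 0.150 and 0.195. A list of partner enzymes covered the urea cycle and the malate-aspartate and glycerol phosphate shuttles. It also held enzymes of gluconeogenesis and of glutamate, glutamine and ornithine metabolism. It had 18 tested genes with 0 called and a median difference of 0.10 at 10 mg/kg and 0.08 at 30 mg/kg. At an unadjusted p under 0.05 for the mean of both doses 6 were higher and 1 lower. The 4 with the smallest p were all higher. Cps1, which makes carbamoyl phosphate for the urea cycle, had log2 differences of 0.12 and 0.11, and Arg1, the arginase of liver, 0.23 and 0.18. Gpd2 and Gpd1, the mitochondrial and cytosolic glycerol phosphate dehydrogenases, had 0.51 and 0.39, and 0.34 and 0.18. Genes of mitochondrial mass and biogenesis had 17 tested members with 0 called, 1 of them higher at an unadjusted p under 0.05, Ppargc1a, a coactivator of mitochondrial biogenesis (log2 differences of 0.48 and 0.35). Genes of fusion, fission and mitophagy had 9 tested members with 0 called and 2 lower at an unadjusted p under 0.05, Pink1 and Mfn1. For the mean of both doses 17.7% of all genes had an unadjusted p under 0.05 in limma, with 12.4% lower and 5.30% higher.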

How the data were processed

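Liver RNA of 15 samples was hybridised to 1 Affymetrix array each. The deposited values are log2 levels, 1 per probe set and array. RMA, GCRMA 2.12.1 and limma 2.14.7 appear in the submitters' processing notes; the notes give no roles, and the method behind the values is unknown here. The array medians are nearly equal, and normalisation between arrays would hide a change shared by most genes. Array medians lay between 6.08 and 6.12, 0 pairs of arrays were identical, and pairwise correlations ran from 0.989 to 0.996. Of 31099 probe sets, 57 were controls, 20826 carried 1 gene symbol, 436 several and 9780 none. Among those with several were 2 carrier probe sets, which were left out.

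Groups and replicate numbers came from the sample titles. After the filter, the brightest probe set with 1 symbol stood for each of 9540 genes. Group means were fitted to all 15 arrays with limma 3.58.1 in R 4.3.3 (eBayes without trend or robust options), with 4 contrasts. Same-numbered samples of different groups correlated between -0.0706 and 0.195 in their deviations from group means, and 3 of 15 pairs exceeded 0.1, so the numbers were not taken as pairs. Members with an unadjusted p under 0.05 in any contrast, members without overlap, and a list of core carriers are given with all values. Slc25a47, on that list, was not analysed here. Other gene lists name up to 4 genes with the smallest p for the mean of both doses, and lists of cell type markers name examples. Members and lists were chosen with earlier results of these data known. List means are averages of log2 values, and relations used 100000 permutations, two-sided. Deviations from group means were permuted freely over all 15 samples. Their p-values do not allow for the fitted group means and tend to be too small.

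In 20 simulations of the 10 mg/kg contrast, 200 of 9540 genes were given changes of mixed size under normal noise independent between genes, and recovery was 42.0% for 1.2-fold changes, 87.7% for 1.5-fold and 95.6% for 2-fold. These shares hold for that number of changed genes and are not the chance of calling a given member. The number of arrays limits the precision. Alternatives were other filters, probe set rules, normalisations and fits, a replicate block, and leaving out each sample.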

Additional observations from a re-analysis of the deposited data

Results flagged for a closer look

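Among the 31 tested members in 3 groups of 5, or 93 sets of values, 5 values stood apart from the other 4 of their group by Dixon's criterion at 95%. Chance alone flags about 1 in 20 such sets. Slc25a12 was 7.38 in vehicle sample 1, where the others lay between 6.92 and 7.00. Slc25a13 was 12.68 in sample 5 at 30 mg/kg against 12.51 to 12.55, and Slc25a29 was 7.49 in the same sample against 7.22 to 7.27. Slc25a21 was 6.51 in sample 1 at 10 mg/kg against 6.04 to 6.18. Ucp2 was 8.43 in sample 1 at 30 mg/kg, where the others lay between 7.93 and 8.06.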

How the results depend on the processing

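The count of called members was 0 in all 4 contrasts under all alternatives run: no filter or all 15 values above the threshold, probe sets averaged or kept apart, quantile normalisation, median centring, trend and robust options, array weights, the replicate block and each of 15 fits without 1 sample. Fits to the groups compared alone gave 0 as well, and could not be fitted for the mean of both doses. The counts at an unadjusted p under 0.05 were added after the data were seen. With the replicate block they were 8, 7 and 10 and, between the doses, 3. Without it they were 8, 6 and 10 for 10 mg/kg, 30 mg/kg and the mean of both doses, and with 1 sample left out they ran from 6 to 12, from 4 to 7 and from 8 to 12. Between the doses the count was 4, it was 2 in the fit to those groups alone, and it ran from 2 to 6 with 1 sample left out, 2 without sample 1 or sample 4 at 30 mg/kg.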
